A study of Mus musculus with 18 samples.

Results

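The Schlafen genes described here are Slfn1, Slfn2, Slfn5, Slfn8 and Slfn9, which are 5 of the 43432 genes in the RNA-seq table and have 20 of the 27729 peaks in the GCLiPP peak list. They were chosen by name with an earlier result known, the low level of Slfn2 after actinomycin D, so the actinomycin D values, and how they differ with stimulation, are given as a description and without a p-value for any Schlafen gene. The study profiled cultured T cells of C57BL/6 mice, pooled from several animals, and the RNA-seq has 1 library for each of 8 conditions. CD8 T cells (grown with IL-2 and IL-12) and Th2 cells (CD4 T cells grown with IL-2, IL-4 and an antibody against interferon gamma) were activated through CD3 and CD28, cultured for 5 days, and for the last 4 hours either given PMA and ionomycin (stimulated) or fresh medium alone (resting). For each of these 4 states there was a library from cells treated with actinomycin D, which blocks transcription, and a library from cells that were not. The study's methods put actinomycin D after the stimulation, for one of several times of up to 4 hours, and which of them was sequenced is not given in the sources used here. The sample records give ultraviolet light of 8000 mJ at 254 nm for all libraries, those of RNA-seq included. By the study's methods, part of the RNA selected with oligo-dT from lysates of crosslinked cells was kept for RNA-seq. Cells treated with actinomycin D are said to have been collected for RNA-seq as well. For them the methods describe lysis in Trizol and do not mention crosslinking or oligo-dT. Whether libraries with and without actinomycin D were prepared alike is therefore not known here, and the part of preparation in their differences was not tested. In GCLiPP (global crosslinking and protein purification), whose labels name no actinomycin D, RNA is crosslinked to protein by ultraviolet light in living cells and the protected fragments are sequenced, so that a peak is a stretch of RNA occupied by some protein. Its 10 libraries (4 of CD8 and 6 of Th2 cells, resting and stimulated) were pooled into 1 peak list, and no comparison between cell types or states can be made from it.

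Schlafen proteins were first described in developing mouse T cells and take their name from the German word for sleeping, after the growth arrest that Slfn1 causes in them. Short members (Slfn1 and Slfn2) hold little more than the shared Schlafen core, while long members (Slfn5, Slfn8 and Slfn9) also carry a helicase-like end. Slfn2 is the best known in T cells: mice with a defective Slfn2 lose T cell quiescence and are immunodeficient, and its protein binds tRNAs. Many Schlafen genes are induced by type I interferon, and human SLFN5 can act as a corepressor of interferon-stimulated transcription. Other family genes are the intermediate-length Slfn3 and Slfn4, the long Slfn14, the pseudogene Slfn10-ps, and Slfnl1, a relative that carries a Schlafen-like domain.

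The 5 genes lie on chromosome 11 of mm10, at 82951349-82962941 on the plus strand for Slfn5, 82979629-82991830 on the minus strand for Slfn9, 83002158-83020810 on the minus strand for Slfn8, 83065112-83070678 on the plus strand for Slfn2 and 83116849-83122670 on the plus strand for Slfn1. The GCLiPP peaks of Slfn2 are the highest of the family, and the central 30 bases of each are shown, 5′ to 3′ on the plus strand of GRCm38, because they cover most of its short 3′ UTR. Capitals mark a run of C that was noticed after the sequences were read. The peaks scored 126, 352, 471, 486 and 193 in the order given.
Slfn2, chr11:83070346-83070375: aatctgtatgagggcggcagagatggctca
Slfn2, chr11:83070410-83070439: tgagctgtaaCCCCCCCCCCCCagcctgaa
Slfn2, chr11:83070497-83070526: gcctgccgccctatcgttcatcctaccctt
Slfn2, chr11:83070544-83070573: aggggtgtgtccgttccacgcagacaaagg
Slfn2, chr11:83070630-83070659: gggaatgggccccttccccctccttcataa

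The score is the authors' number for each peak, and its meaning is not stated, so ranks, sums and ratios of it describe these numbers and not a known quantity of bound protein. Over all 27729 peaks the median score was 24, and the 5 peaks of Slfn2 stood above 94.99% to 99.31% of them. Their summed score of 1628 ranked 86th among the 6688 genes with a peak and made up 84.0% of the summed score of the 5 Schlafen genes. The peaks covered 312 of the 345 bases of the annotated 3′ UTR (90.4%), and the last of them ended 1 base past the annotated end of the transcript. Slfn2 also had the highest mean RNA level of the family. Set against its RNA, the summed score was 108 per 1000 normalised reads of the untreated libraries, above 80.2% of the 6486 genes that had both a peak and enough RNA (median 42.6). Slfn5 and Slfn8, with far lower scores and RNA, had ratios of 159 and 126, while Slfn1 had 25.7 and Slfn9 had 14.8. Of the summed score of Slfn8, 141 of 183 came from peaks outside its annotated transcripts, and the ratio without them was 28.8. Both Slfn5 peaks lay outside the gene bounds of the table that gave its RNA level.

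Slfn1 had 3 overlapping peaks between 385 and 488 bases past its stop codon, with scores of 21, 21 and 24, none above the median of all peaks. Slfn5 had 2 peaks, with scores of 15 and 28, that lay 2282 and 2586 bases into a 3′ UTR of 3136 bases, past the gene end in the deposited table but inside the transcript of GENCODE M21. Slfn8 had 9 peaks with scores of 14 to 44, and 7 of them lay beyond the annotated end of its transcripts, up to 4606 bases from the main stop codon. A further Slfn8 peak, with a score of 22, was centred 96 bases upstream of that stop codon, within an annotated transcript (position -96). Slfn9 had a single peak, with a score of 18. The lower-scoring Slfn5 peak is shown because its central 30 bases, on the plus strand, hold a run of 22 A.
Slfn5, chr11:82963972-82964001: aaaatataaaaaaaaaaaaaaaaaaaaaag

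**Figure D1:**
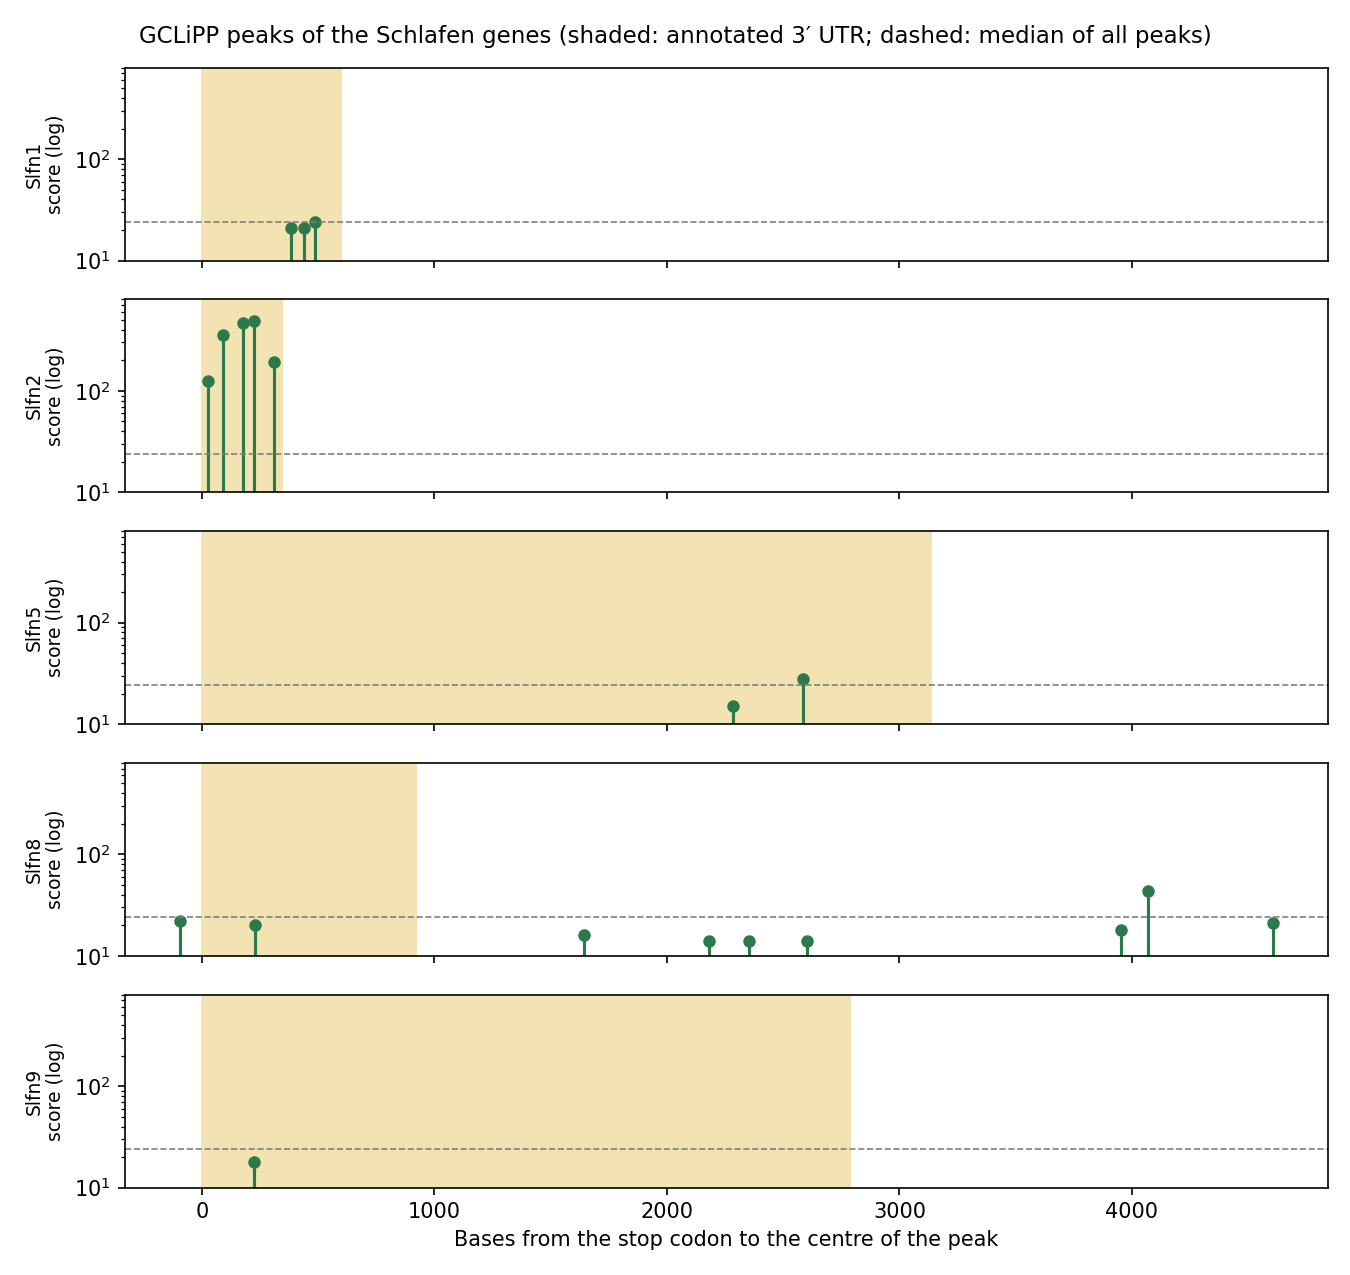
Score of each GCLiPP peak (log axis, the authors' units) against the distance in bases from the stop codon of the main annotated transcript to the centre of the peak, with 1 panel per Schlafen gene. The shaded span is the annotated 3′ UTR, and the dashed line is the median score of all 27729 peaks (24): the 5 peaks of Slfn2 stand at 126 to 486 within 345 bases, and 7 of the 9 Slfn8 peaks lie past the annotated end.

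The peaks of Slfn8 and Slfn9 shared sequence. The Slfn8 peak with a score of 20, centred 228 bases past its stop codon, and the Slfn9 peak, centred 222 bases past its own, overlapped in 65 bases that were identical at every position. The 30 bases in the middle of that overlap are shown, written on the minus strand, with capitals for the identical letters.
Slfn8, chr11:83002840-83002869: ATGACATAGGCTATGGGAACGTTGAGACCA
Slfn9, chr11:82980938-82980967: ATGACATAGGCTATGGGAACGTTGAGACCA
Both Slfn8 peaks that could be read in annotated transcripts occurred whole, 70 of 70 bases, in a transcript of Slfn9, and 67 of the 70 bases of the Slfn9 peak occurred in a transcript of Slfn8. Reads from these sites cannot be told apart between the genes. The peaks of Slfn1 and Slfn5, and the 4 Slfn2 peaks wholly inside its transcript, shared at most 15 bases with any other Schlafen transcript. The Slfn2 peak with a score of 193, which runs past the transcript end, was not compared.

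Of the 20 peaks, 12 lay wholly in annotated transcripts and were searched, on the RNA strand, for letters that RNA-binding proteins are known to bind. The core of AU-rich elements (ATTTA), the Pumilio motif (TGTANATA) and a run of T (TTTTTT) were in none of the 12, against 7.90%, 1.72% and 4.94% of the 26458 peaks searched over all genes. The polyadenylation signal (AATAAA) was in 1, the lower-scoring Slfn5 peak, against 6.56% of all. A run of C (CCCCCC), which poly(C)-binding proteins can bind and which was added after the Slfn2 sequence had been seen, was in 2, the Slfn2 peak with a score of 352 and the Slfn1 peak with a score of 24, against 1.66% of all. The whole 3′ UTR of Slfn2 held no ATTTA, no TGTANATA and no AATAAA, whereas that of Slfn5 held 9 ATTTA and that of Slfn9 held 5 ATTTA and 2 TGTANATA. These matches are letters in a window and not tested sites.

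RNA levels were read as normalised reads: the reads of a gene, after division by a factor that is the same for all genes of that library. Reads on genes numbered between 24154849 and 31042504 per library, and a value carries the counting error of its own library only, given as an exact 95% Poisson interval where the counts were low. All 5 Schlafen genes had a mean of at least 50 normalised reads, the minimum for testing, which 10972 of the 43432 genes reached. All 10 T cell markers were measured, with Cd3e at 4479 to 7500 in every library. Of the 10, 5 were lower and 0 higher in CD8 than in Th2 cells at a limma adjusted p under 0.05. Their median log2 difference was -0.43, and Cd5 was furthest from 0 (-1.14). Of all genes tested, 11.5% were lower and 9.97% higher. Cd4 stood at 25.9 to 281 in the CD8 libraries, against 20061 to 39568 in the Th2 libraries. Cd8a stood at 10516 to 15750 in the CD8 libraries and at 1331 to 2401 in the Th2 libraries, so the Th2 libraries also held CD8 transcripts. Because these are bulk samples, fewer cells that express a gene and less RNA per cell cannot be told apart.

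Per kilobase of exon, the mean over the 8 libraries was 4789 normalised reads for Slfn2, 912 for Slfn1, 273 for Slfn8, 145 for Slfn9 and 39.4 for Slfn5. Exon lengths are those of GENCODE M21, whose transcripts of Slfn5 and Slfn9 reach past the gene ends deposited with the RNA values. Reads past those ends may not have been counted, so the values per kilobase of Slfn5 and Slfn9 may be too low. In both CD8 libraries with actinomycin D, Slfn8 (143 in stimulated and 166 in resting cells) was above Slfn2 (127 and 92.3). Slfn2 was above Slfn1 in 7 of 8 libraries, by up to 24.5-fold, and the exception was the resting CD8 library with actinomycin D, with 92.3 for Slfn2 and 94.5 for Slfn1. With these lengths Slfn8 was above Slfn9 in 8 of 8 libraries, by 1.02-fold to 2.72-fold. In resting Th2 cells without actinomycin D they were close (278 for Slfn8 and 271 for Slfn9), so their order there is uncertain. The pseudogene Slfn10-ps, at 341 per kilobase, lay above Slfn8 in 8 of 8 libraries, and Slfn3, at 94.0, lay below Slfn9 in 8 of 8.

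The transcripts of part of the family are alike enough to share sequencing reads. Of all words of 50 bases in Slfn8 transcripts, 14.6% also occurred in another gene, mostly Slfn10-ps (10.1%) and Slfn9 (9.30%), and the share was 11.5% for Slfn9. It was 4.27% for Slfn2 (with Slfn4), 3.37% for Slfn5 and 0.606% for Slfn1. The values of Slfn8 and Slfn9 are therefore uncertain by the reads that the authors' counting could have moved between them and Slfn10-ps. Slfn2 also has an antisense gene model in GENCODE M21. Among the genes counted, Slfn5os lies antisense over part of Slfn5, with a mean of 0.097 normalised reads. The study's methods name a stranded library kit, but whether the counting used strand is not stated.

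**Figure D2:**
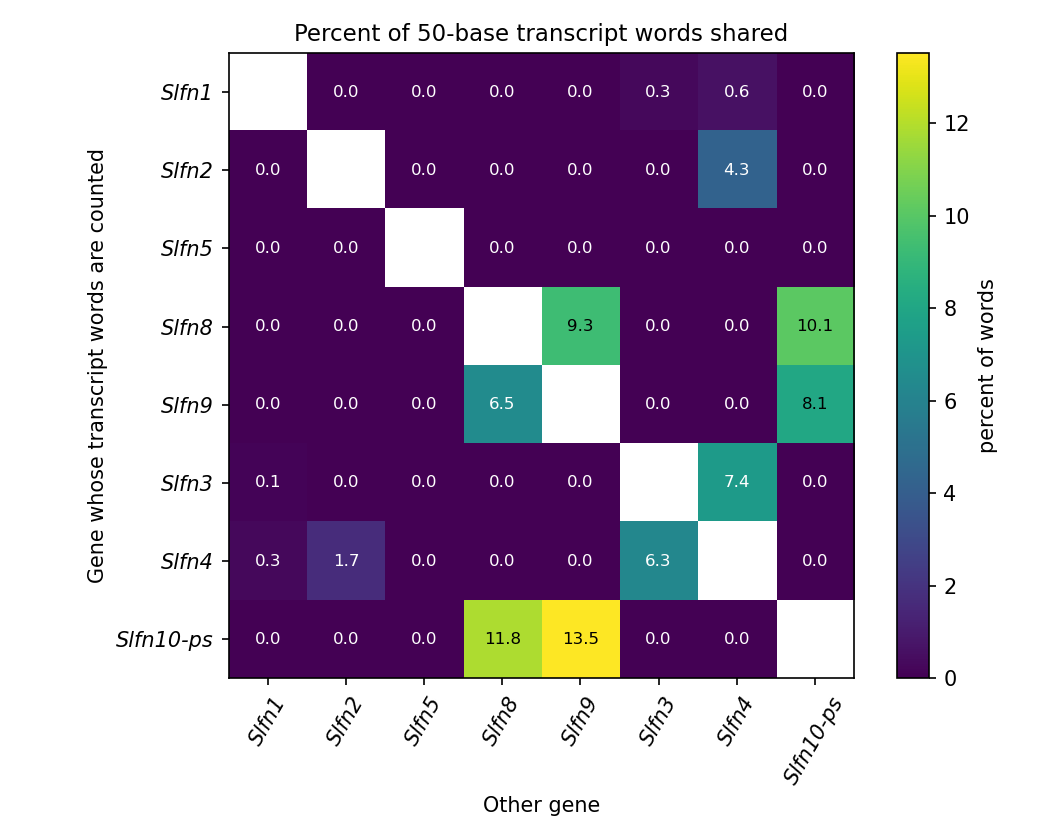
Percent of the distinct 50-base words in the annotated transcripts of each gene (rows) that also occur in the transcripts of another Schlafen gene (columns). Slfn8, Slfn9 and Slfn10-ps share 6.5% to 13.5% of their words pairwise, Slfn2 shares 4.3% with Slfn4, and Slfn5 shares none with these genes.

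With actinomycin D, 4 of the 5 genes (Slfn1, Slfn2, Slfn8 and Slfn9) were lower than without it at a limma adjusted p under 0.05, as were 21.9% of all genes tested (16.8% were higher, 38.7% in all), and since the genes were proposed from this contrast nothing is read from that count. Slfn2 is the gene for which it was known. Its normalised reads in CD8 cells were 212 (95% counting interval 184 to 242) with actinomycin D, against 11128 without, in stimulated cells, and 154 (130 to 180) with, against 2229 without, in resting cells. In Th2 cells they were 1644 with, against 36860 without, in stimulated cells, and 1438 with, against 10088 without, in resting cells. Every library with actinomycin D lay below every library without it, and the share of the untreated level was 1.90% and 6.89% in stimulated and resting CD8 cells and 4.46% and 14.3% in stimulated and resting Th2 cells. The fitted log2 difference was -4.21 (SE 0.43, 4 pairs), the 10th lowest of 10972 genes, while the median of all genes was 0.0015.

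Slfn1 had 213 and 176 normalised reads with actinomycin D in stimulated and resting CD8 cells, against 510 and 696 without, and 1652 and 1265 with actinomycin D in stimulated and resting Th2 cells, against 4120 and 4962 without. It was lower in all 4 pairs, with 25.3% to 41.7% of the untreated level and a log2 difference of -1.63 (SE 0.19). The share was close in both cell types and differed by state: 41.7% and 40.1% in stimulated CD8 and Th2 cells, and 25.3% and 25.5% in resting ones.

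Slfn9 had 436 and 385 normalised reads with actinomycin D in stimulated and resting CD8 cells, against 1000 and 1105 without, and 670 and 550 in stimulated and resting Th2 cells, against 1134 and 1616 without. It was lower in all 4 pairs, at 34.0% to 59.1% of the untreated level (log2 difference -1.26, SE 0.18). Slfn8 was also lower in all 4 pairs, with 586 and 678 in stimulated and resting CD8 cells with actinomycin D, against 1469 and 1101 without, and 1021 and 836 in Th2 cells with actinomycin D, against 2118 and 1136 without. Its log2 difference was -0.88 (SE 0.18), and the call was lost without the stimulated CD8 pair, and with edgeR, which also lacked the stimulated CD8 library with actinomycin D.

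Slfn5 differed least of the 5 genes and was lower with actinomycin D in 3 of 4 pairs. Its normalised reads in CD8 cells were 40.7 (29.2 to 55.3) and 32.5 (22.4 to 45.6) with actinomycin D in stimulated and resting cells, against 37.9 (25.9 to 53.5) and 39.4 (27.9 to 54.1) without. In Th2 cells they were 510 and 334 with actinomycin D, against 535 and 467 without. The CD8 intervals overlap one another, and the log2 difference over the 4 pairs was -0.18 (SE 0.20). Each library is scaled as a whole, so this difference is relative to the other genes, whose median was 0.0015. Scaled to ribosomal protein genes instead, which put that median at -0.63, Slfn5 was at -0.81. Of the family genes that were not among the 5, Slfn3 and Slfn10-ps passed the minimum. Slfn3 had 146 to 191 normalised reads with actinomycin D, against 411 to 536 without, and Slfn10-ps had 526 to 1186 with, against 1140 to 2335 without.

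**Figure D3:**
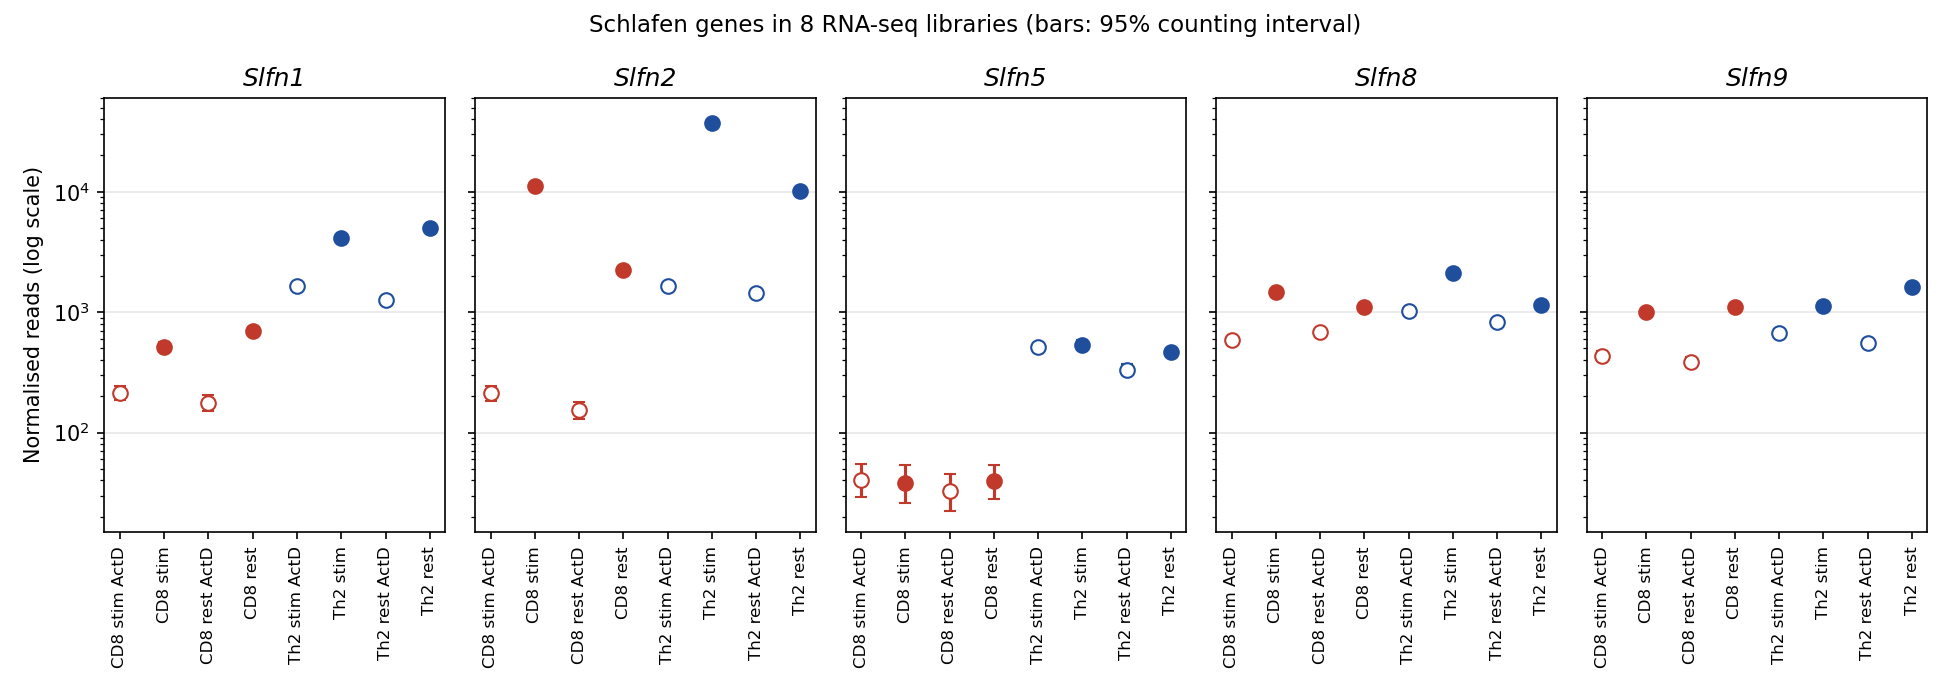
Normalised reads (log axis) of the 5 Schlafen genes in each of the 8 RNA-seq libraries, CD8 in red and Th2 in blue, with open points for actinomycin D (ActD) and filled points for none. Bars are 95% Poisson counting intervals and are mostly smaller than the points: Slfn2 spans 154 to 36860, and Slfn5 stays between 32.5 and 40.7 in all CD8 libraries.

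The CD8 and Th2 libraries differed for the short genes and for Slfn5. Cell type here also stands for culture: the added cytokines differed, and only Th2 cultures had an antibody against interferon gamma. The parts of lineage, cytokines and culture cannot be told apart in any comparison of CD8 with Th2 cells. Conditions were not repeated, so the p-values do not measure the spread between repeated cultures. Slfn1, Slfn2 and Slfn5 fell in CD8 cells relative to Th2 cells (limma over all 8 libraries, adjusted for stimulation and actinomycin D), 3 of the 5 genes, against 11.5% of all genes tested. None of the 5 was called higher in CD8 cells, against 9.97% of all, and 21.5% of all were called either way. The strongest was Slfn5, with 32.5 to 40.7 normalised reads in the 4 CD8 libraries, against 334 to 535 in the 4 Th2 libraries. The groups were far apart, the ratio was 7.10% to 9.73% in the 4 matched conditions, and the log2 difference was -3.56 (SE 0.19, limma adjusted p = 1.86e-05).

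Slfn1 had 176 to 696 normalised reads in CD8 libraries and 1265 to 4962 in Th2 libraries, which did not overlap. The ratio of CD8 to Th2 cells was nearly the same whatever the condition, at 12.4% to 14.0%, and the log2 difference was -2.91 (SE 0.17, limma adjusted p = 3.15e-05). Slfn2 ranged more widely, with 154 to 11128 in CD8 libraries and 1438 to 36860 in Th2 libraries, and these ranges overlapped. Within each matched condition CD8 cells were lower, at 30.2% and 22.1% of the Th2 level in stimulated and resting cells without actinomycin D and at 12.9% and 10.7% with it, and the log2 difference was -2.52 (SE 0.40, limma adjusted p = 0.00401).

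The long genes Slfn8 and Slfn9 were lower in CD8 cells in 4 of 4 matched conditions but by less, at 57.4% to 96.9% and 65.1% to 88.2% of the Th2 level. Their log2 differences of -0.42 (SE 0.19, limma adjusted p = 0.156) and -0.47 (SE 0.16, limma adjusted p = 0.0845) missed the threshold. With the matched condition as a replicate block both passed it (limma adjusted p = 0.0485 and 0.0167), and the share of all genes called then was 36.8%. Slfn10-ps fell in CD8 cells (log2 difference -0.73, SE 0.17, limma adjusted p = 0.0201), and Slfn3 differed by 0.0071 (SE 0.17, limma adjusted p = 0.981). Slfn4 stood at 2.07 to 10.7 normalised reads in CD8 libraries, against 7.93 to 32.4 in Th2 libraries, below the minimum for testing. Slfn14 was at 0 in 7 libraries and had 3.40 normalised reads in the stimulated Th2 library, and Slfnl1 reached 1.99 at most.

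Markers of other cells also differed between the cell types. The 7 B cell markers summed to 3408 to 8235 in CD8 libraries, against 9420 to 12949 in Th2 libraries, and of these Cd79a stood at 5.96 to 17.8 in CD8 libraries, against 113 to 182 in Th2 libraries. The 7 myeloid markers in the table summed to 5020 to 7849 in CD8 libraries, against 393 to 911 in Th2 libraries. Only 2 of them passed the minimum, of which Ly6c2 was called higher in CD8 cells (log2 difference 4.42). The macrophage and neutrophil gene Lyz2 went the other way, at 0 to 2.98 in CD8 libraries, against 22.7 to 132 in Th2 libraries. The 5 NK cell markers summed to 4801 to 5538 in CD8 libraries, against 359 to 545 in Th2 libraries. Of the 3 that passed the minimum, Klrd1 and Klre1 were called higher in CD8 cells (4.07 and 2.02). Ncr1 stood at 0.984 to 2.37 in CD8 libraries, against 3.40 to 21.8 in Th2 libraries. Whether the RNA of Ly6c2, Klrd1 and Klre1 came from the T cells themselves was not tested. The 5 stromal markers summed to 349.7 to 775.8 in CD8 libraries, against 1173 to 1916.5 in Th2 libraries. Only 1 of them, Pecam1, passed the minimum, and it was called lower in CD8 cells (log2 difference -1.49). The part of such other cells in the Schlafen differences was not tested.

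Genes around the cluster were read for comparison. Within 200 kb of the outermost of the 5 genes the table lists 22 other genes outside the family, and 11 of them passed the minimum, among them Zfp830, Gm11423, Lig3, Rffl, Rad51d, Nle1, AI662270, Gm11427, AA465934 and Ap2b1. Of these 11, AI662270 fell in CD8 cells (log2 difference -0.65, SE 0.12, limma adjusted p = 0.00776), and none of the others was called. Of all genes tested, 11.5% fell and 9.97% rose in that comparison. With actinomycin D 4 of the 11 fell, led by Zfp830 (-1.69), and 1 rose, the recombination gene Rad51d (0.58). Of all genes tested, 21.9% fell and 16.8% rose with the drug.

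Stimulation was read first in the 4 libraries without actinomycin D. Slfn2 rose with stimulation, the only one of the 5 genes called (6.59% of all genes tested were called higher and 4.69% lower, 11.3% in all). It had 11128 normalised reads in stimulated CD8 cells, against 2229 in resting ones, and 36860 in stimulated Th2 cells, against 10088 in resting ones. That is 4.99-fold and 3.65-fold, with a log2 difference of 2.09 (SE 0.16, limma adjusted p = 0.0203). This fit has 4 libraries and 1 residual degree of freedom, so its error rests mainly on the spread of all genes.

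The other genes moved less. Slfn8 stood at 1469 in stimulated and 1101 in resting CD8 cells, and at 2118 in stimulated and 1136 in resting Th2 cells (log2 difference 0.66, SE 0.18, limma adjusted p = 0.0824). Slfn1 stood at 510 in stimulated and 696 in resting CD8 cells, and at 4120 in stimulated and 4962 in resting Th2 cells (log2 difference -0.36, SE 0.14, limma adjusted p = 0.147). Slfn9 had a log2 difference of -0.33 (SE 0.16, limma adjusted p = 0.220) and Slfn5 of 0.070 (SE 0.23, limma adjusted p = 0.841). When values were scaled to ribosomal protein genes, which moved the median of all genes to -0.37 on the log2 scale and the split of all genes called to 542 higher and 3244 lower (723 and 515 without it), Slfn1 and Slfn9 were called lower and the sign of Slfn5 turned (-0.33).

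Over all 8 libraries, stimulation called none of the 5 genes by limma, against 0.118% of all genes tested. One gene, Slfn2, had an unadjusted p under 0.05 (log2 difference 1.21, SE 0.40, limma adjusted p = 0.292), and DESeq2 on the recovered reads called 1, Slfn2 again, while edgeR called 0. The values differ by drug: with actinomycin D, Slfn2 had 212 normalised reads in stimulated CD8 cells, against 154 in resting ones, and 1644 in stimulated Th2 cells, against 1438 in resting ones, a difference of 1.38-fold and 1.14-fold.

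The stimulation change was then set side by side with and without actinomycin D, as a description, because the values with the drug were known when the genes were proposed. For Slfn2 the change was smaller with the drug in both cell types (log2 difference of the changes -1.77, SE 0.47). In the fit over all genes Slfn2 alone of the 5 was past the limma threshold, as were 7.44% of all genes in this direction and 7.06% in the other (14.5% in all). Slfn2 was no longer past it in 6 of 8 fits that left out 1 library (all but those without the untreated stimulated CD8 or Th2 library), with edgeR, with no filter on low values, with ribosomal scaling and with quantile normalisation, where Slfn1 passed in its place. The sign was negative in each of these fits. Slfn1 was 0.27 and 0.38 higher on the log2 scale in stimulated than in resting CD8 and Th2 cells with actinomycin D, and its differences without were -0.45 and -0.27 (difference of the changes 0.68, SE 0.19). The difference of the changes was 0.56 (SE 0.23) for Slfn9, 0.39 (SE 0.31) for Slfn5 and -0.62 (SE 0.27) for Slfn8, which came to 0.077 when scaled to ribosomal protein genes.

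No difference in the stimulation change between the cell types was detectable with the fit used. That fit has no term for a stimulation change that differs with actinomycin D, so such differences add to its error. Calls were therefore unlikely for any gene, and nothing is concluded from their lack. The interaction of stimulation with cell type called 0 of the 5 genes by limma, and 0% of all genes tested. None of the 5 had an unadjusted p under 0.05, as 27 of all genes did, and edgeR and DESeq2 called none of the 5 either. The log2 differences ran from -0.49 (SE 0.37) for Slfn8 to 0.36 (SE 0.86) for Slfn2.

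**Figure D4:**
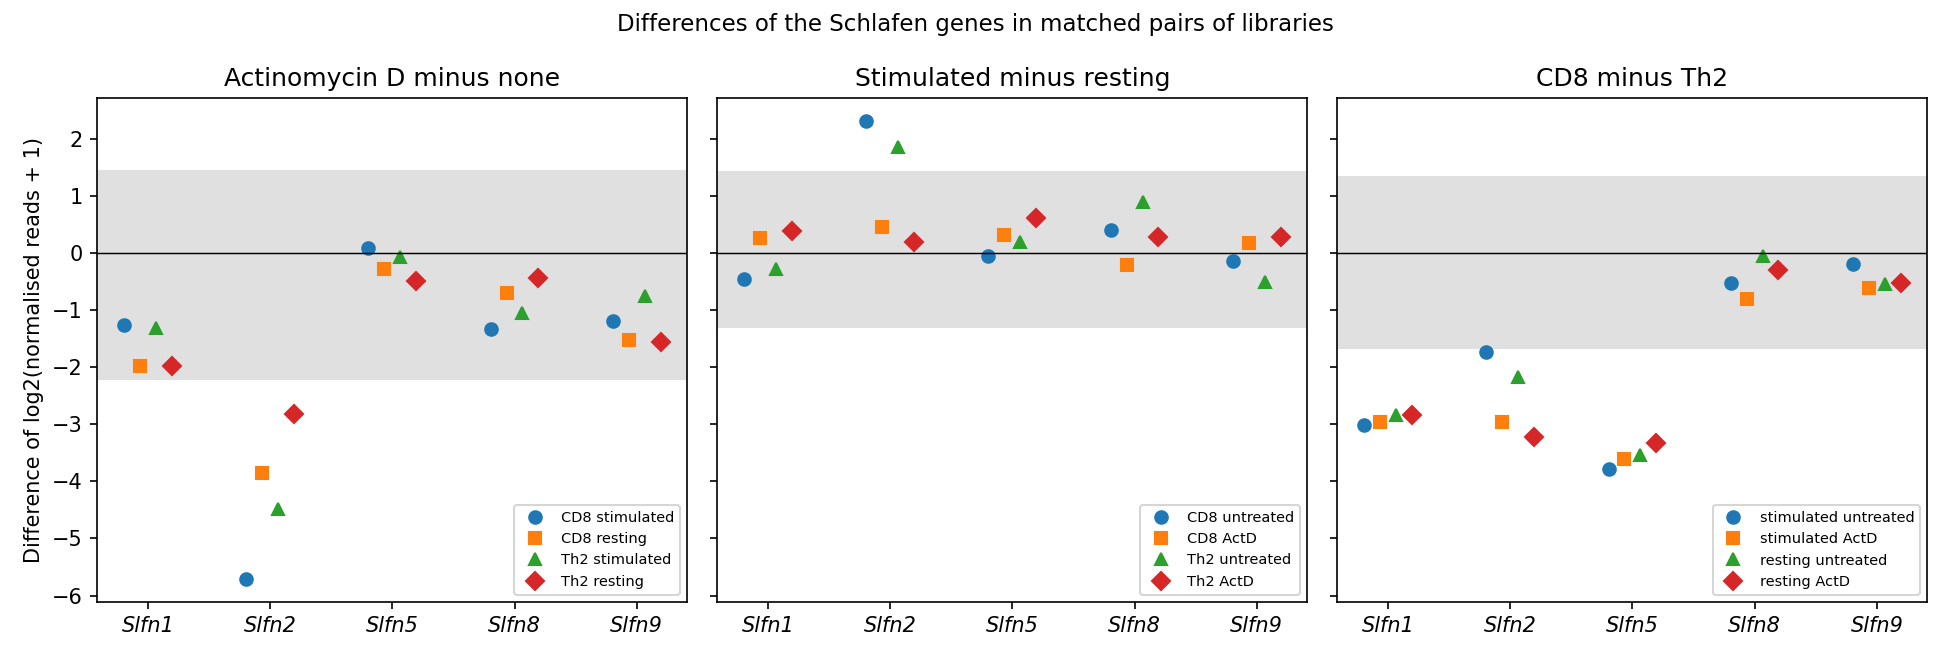
Difference in log2(normalised reads + 1) of each Schlafen gene in the 4 matched pairs of libraries behind each comparison (points), for actinomycin D minus none, stimulated minus resting and CD8 minus Th2. The grey band spans the lowest 5th to the highest 95th percentile of the 10972 tested genes over the 4 pairs: Slfn2 lies below it in all 4 actinomycin D pairs (-2.81 to -5.71) and above it in both untreated stimulation pairs (2.32 and 1.87).

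Because Schlafen genes are known as interferon-induced, a list of 48 other interferon-induced genes was read beside them, of which 36 passed the minimum. In CD8 cells against Th2 cells 11 of the 36 fell and 2 rose, where 11.5% and 9.97% of all genes did, with a median log2 difference of -0.50, against 0.017 for all genes tested. The furthest from 0 were Ifi27l2a (-4.56), Xaf1 (-2.97) and Ifi203, a member of the HIN-200 family that rose (2.66). With actinomycin D 7 of the 36 fell and 4 rose (median -0.020), where 21.9% and 16.8% of all genes did, with Irgm1, a GTPase of interferon-driven defence against intracellular microbes, furthest from 0 (-2.03). With stimulation in the untreated libraries 3 of the 36 passed, where 11.3% of all genes did: the ubiquitin-like modifier Isg15 rose by 1.84, while Ifit2 and Parp9 fell by 1.52 and 0.80 on the log2 scale.

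All 12 genes of interferon receptors and STAT signalling were measured. In CD8 cells relative to Th2 cells 5 of them fell and 1 rose, where 11.5% and 9.97% of all genes did (median -0.32). They differed within the receptor for interferon gamma: the chain Ifngr2 fell (-5.00, SE 0.28, limma adjusted p = 2.84e-05) while the chain Ifngr1 rose (2.16, SE 0.22, limma adjusted p = 0.000467), and the kinase Jak2 fell (-2.68, SE 0.37, limma adjusted p = 0.00213). Jak2 was also the gene of this list that rose with stimulation in the untreated libraries (1.99, SE 0.18, limma adjusted p = 0.0247), where 6.59% of all genes did. Stat2, Irf9 and Usp18 are among the genes that stand in both lists.

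A list of 18 genes that keep T cells quiescent or direct their homing was read because Slfn2 is known for quiescence, and all 18 were measured. With stimulation in the untreated libraries, where Slfn2 rose, 5 of the 18 fell and 1 rose, where 4.69% and 6.59% of all genes did (median -0.51, against 0.034 for all genes). S1pr1, the receptor that lets T cells leave lymph nodes, fell by 3.71, the thioredoxin inhibitor Txnip fell by 3.30 and the PI3-kinase inhibitor Pik3ip1 fell by 3.24 on the log2 scale, and the gene that rose was the antiproliferative Btg1 (1.49), named after its value was seen. With actinomycin D 9 of the 18 fell and none rose, where 21.9% and 16.8% of all genes did (median -0.88), led by the transcription factor Klf2, which drives S1pr1, at -3.11 (SE 0.68). In CD8 cells against Th2 cells 2 fell and 1 rose, where 11.5% and 9.97% of all genes did (median 0.058).

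The promoters that RefSeq gives for the family on GRCm38.p6, from 250 bases before to 50 after the start, were searched on both strands for the core of the interferon-stimulated response element, which is GAAA, then NN, then GAAA. It was found for Slfn5, Slfn8 and Slfn9 and not for Slfn1, Slfn2, Slfn3, Slfn4, Slfn14 or Slfnl1, and 3.44% of the 32851 promoters in the table hold it. The 3 windows with the match are shown to compare it, 5′ to 3′ on the plus strand, with the match in capitals. Counted from the start site, the match lies at -155 in Slfn5, on the strand of the gene. On the opposite strand, it lies at -45 in Slfn9 and at -48 or -136 in Slfn8, depending on the start site used.
Slfn5, chr11:82951937-82951966: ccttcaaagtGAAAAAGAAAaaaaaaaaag
Slfn9, chr11:82991856-82991885: ttgtttttggGAAAACGAAActgctcggat
Slfn8, chr11:83020839-83020868: tgcttttgggGAAAACGAAActgctcaaat
The sequence TTCNNNGAA, which STAT dimers can bind, was in none of the Schlafen promoters searched and in 8.30% of all.

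The genes whose pattern over the 8 libraries was most like each Schlafen gene were found by Pearson's r of log2(normalised reads + 1) among 10358 tested genes, as a description without a test. They were Arid3a (r = 0.998), Mir22hg (0.992) and Ski (0.989) for Slfn2, Alg2 (0.992), Sgms1 (0.990) and Klf3 (0.986) for Slfn1, and Cysltr1 (0.996), Nckap5 (0.995) and Rnf152 (0.994) for Slfn5. For Slfn8 they were Kcnq1ot1 (0.992), Hipk3 (0.990) and Zfp275 (0.978), and for Slfn9 Osbp (0.995), Rbm48 (0.994) and Zfp53 (0.992). With so many genes and only 8 libraries, which share cell type, state and drug, these values of r are a description only. Among the 5 genes r was 0.952 for Slfn2 with Slfn8 and 0.892 for Slfn1 with Slfn5, and it was lowest, 0.386, for Slfn5 with Slfn9.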

How the data were processed

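RNA-seq and GCLiPP libraries of cultured mouse T cells were analysed from the processed tables. RNA-seq reads were aligned to mm10 with STAR, and the deposited signal values are reads per gene that the authors had scaled by a single factor in each library. Their methods name FPKM, but 100% of values were whole multiples of 1 step within 0.01 read. Whole reads were recovered for 7 libraries. The stimulated CD8 library with actinomycin D has a step (0.993) too near 1 to claim, so it was left out of edgeR and DESeq2, and its counting intervals assume that step. GCLiPP reads were aligned with Bowtie2, de-duplicated and pooled by the authors, who called peaks of 70 bases. The deposited score of a peak is used as given. A second gene table holds the same values and the authors' fold changes, which were not used.

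Values were tested as log2(value + 1) by limma 3.58.1 (R 4.3.3, trend on) for genes with a mean of at least 50, with Benjamini-Hochberg adjustment over all genes tested. Differences on this scale are too small for genes with few reads. Conditions are not repeated: matched libraries served as replicates, and p-values measure the spread between them. Pairs of cell type and state formed the block for actinomycin D, and other comparisons were additive or had 1 interaction term. The fits recovered known changes in simulated reads, which held no other effect of cell type, stimulation or drug. Their power in the real libraries, where such effects are large, was not tested. Alternatives were a pseudocount of 10, a minimum of 10 or none, scaling to ribosomal protein genes, quantile normalisation, edgeR 4.0.16, DESeq2 1.42.0, other blocks and leaving out libraries. Sequences come from GENCODE M21 transcripts and RefSeq promoters. Named genes are the 5 Schlafen genes, their relatives, the 3 most alike genes each, neighbours with a mean of at least 50, and at most 3 genes furthest from 0 per list. The genes and lists were chosen with earlier results of these data known. Values of a few genes of these lists are not reported here.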

Additional observations from a re-analysis of the deposited data

Results flagged for a closer look

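For 3 Schlafen genes the stimulation change stood out when libraries with and without actinomycin D were set side by side. For Slfn2 the fit over all genes put the difference of the changes past the limma threshold (-1.77 on the log2 scale, SE 0.47), but no p is given because the values with the drug were known when the genes were proposed. For Slfn1 the stimulated library was the higher of each pair with actinomycin D and the lower of each pair without (0.68, SE 0.19), and Slfn9 had the same arrangement in all 4 pairs (0.56, SE 0.23). Neither of these was past the threshold in the main fit. These values are a description too, and no difference is concluded from them.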

How the results depend on the processing

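Of the counts of Schlafen genes and peaks, 66 alternative values stayed within 1.5 times the reported count and 17 did not. Leaving out 1 pair gave 3 to 4 genes called for actinomycin D, and leaving out 1 library gave 0 for stimulation over all libraries, 0 to 2 for the interaction of stimulation with actinomycin D (Slfn9 joined Slfn2 without the untreated stimulated CD8 library and Slfn1 without the untreated stimulated Th2 library), 3 to 4 for CD8 against Th2 (Slfn9, limma adjusted p = 0.0247 without the untreated stimulated Th2 library) and 0 for the interaction with cell type. DESeq2 called 1 gene for stimulation over all libraries, where limma called 0. For stimulation in untreated libraries, where 1 gene was called, no filter gave 2 and ribosomal scaling 3. For the interaction with actinomycin D, where 1 was called, no filter and edgeR gave 0 and ribosomal scaling 3, and Slfn2 was not among these. Quantile normalisation also gave 1, which was Slfn1 and not Slfn2. Ribosomal scaling put the median of all genes at -0.63 for actinomycin D and 0.69 for that interaction, and the split of all genes called for actinomycin D was then 43 higher and 4532 lower, and 2597 and 2012 with quantile normalisation, against 1842 and 2403. For the interaction it was 4741 and 287, against 775 and 816. It turned Slfn5 in untreated stimulation to -0.33 and Slfn8 in the interaction to 0.077. With the matched conditions as a replicate block, 5 genes were called for CD8 against Th2 and 0 for stimulation over all libraries, and with no replicate block 4 were called for actinomycin D. Of the peaks, 8 of 20 had at least the median score, and 10 lay inside the gene bounds of the deposited table. Over all genes, limma called 4245 for actinomycin D. Without the stimulated CD8 pair it called 2216, and edgeR, which lacked the stimulated CD8 library with actinomycin D, 2186, so the effect of the tool alone was not tested there. The same library is missing from edgeR and DESeq2 in every comparison but that of untreated libraries. For stimulation over all libraries limma called 13, and 21 with no filter, 6 with the replicate block, 3 came from edgeR and 428 from DESeq2. In untreated libraries 1238 became 4365 with no filter, 3786 with ribosomal scaling and 2030 with DESeq2. For the interaction with actinomycin D 1591 became 940, 5028 and, with edgeR, 321. For CD8 against Th2 2358 became 1468 with ribosomal scaling and 4037 with the replicate block, and for the interaction with cell type DESeq2 called 16.

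Some signs turned on leaving out a library, each of a value that was not called. For stimulation over all libraries these fits spanned -0.12 to 0.096 for Slfn1 and -0.16 to 0.093 for Slfn9, and for the interaction with cell type -0.40 to 0.10 for Slfn1, -0.64 to 1.36 for Slfn2 (negative without the untreated stimulated CD8 library or the resting Th2 library with actinomycin D) and -0.20 to 0.46 for Slfn9. Leaving out 1 of the 4 untreated libraries leaves no residual degrees of freedom and was not run. The 1 library per condition and the unstated choice among the times of actinomycin D limit every comparison. No paired analysis was possible for GCLiPP because its libraries were pooled.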
